A study of Mus musculus with 4 samples.

Results

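The genes described here are 9 neurotrophic factors and receptors, taken by symbol from a count table of 45703 genes in 4 RNA-seq libraries of cultured mouse cortical astrocytes. They are the ligands Ptn, Mdk, Bdnf, Ntf3, Gdnf and Cntf and the receptors Ntrk2, Ntrk3 and Ngfr, and all 9 were found. The series has 1 group of 4 cultures and no contrast, and it was made to profile calcium signalling genes. Levels were therefore compared between genes within the cultures, and culture 4 was set beside cultures 1 to 3.

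Each library came from glial cells of the frontal cortex of outbred, wild-type CD-1 mice, taken at postnatal day 4. The cells were grown with serum, B27 and 10 ng/ml EGF, reseeded at day 6 in vitro at 200000 per dish, and lysed 3 days later after 1 h without serum in Ham's medium. Poly-A RNA was sequenced with a stranded kit. No sorting step is given, so the cultures hold whatever glial and other cells survive this protocol. The 4 cultures are called biological replicates, and whether they came from separate animals or preparations is not stated. The p-values below therefore measure only the spread between these 4 libraries. In bulk RNA, fewer cells of a type and less RNA per cell cannot be told apart.

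The libraries held 37300485 to 42369109 counts, so that 3 counts, the floor used for a single library, were 0.0708 to 0.0804 counts for every 1000000 of the library (CPM). Such floors cover counting error only. Cultures 1, 2 and 3 were near repeats of each other: the chi-square per degree of freedom over genes was 39.4 to 41.1 between culture 4 and each of them, against 2.11 to 3.17 among the 3. The 10 astrocyte markers listed were all expressed, that is at 1 CPM or more in each of the 4 libraries. Their summed level was 7172 CPM in culture 4, against 8789 to 8990 CPM in cultures 1 to 3. By gene the list was split. Culture 4 was the lowest for Gfap (779.7 CPM, against 1498 to 1555 CPM), Aqp4, Slc1a3, Gja1, S100b and Atp1b2. It was the highest for Slc1a2 (368.0 CPM, against 285.2 to 311.0 CPM), Aldh1l1, Sox9 and Aldoc. Some markers of other cells were expressed by the same rule, which 32.2% of all genes in the table met. They were 7 of 8 microglial, 7 of 10 oligodendrocyte lineage, 5 of 7 mural and 5 of 7 fibroblast markers. Of the remaining lists, 5 of 10 neuronal, 2 of 7 endothelial (28.6%), 2 of 4 ependymal and 0 of 6 Schwann cell markers were expressed. Sox10 (oligodendrocyte lineage) and Kcnj8 (mural) had only 9 counts each over the 4 libraries. These shares alone do not show which cell types were present.

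Neurotrophic factors are secreted proteins that keep neurons alive and shape their processes and synapses. The neurotrophins BDNF and NT-3 bind the TRK receptor tyrosine kinases and, with less preference, the p75 receptor. GDNF acts through a GPI-anchored co-receptor and the kinase RET, CNTF through a tripartite cytokine receptor, and the heparin-binding proteins midkine and pleiotrophin through receptors such as the phosphatase PTPRZ1. Astrocytes are known to carry mostly a truncated TrkB that lacks the kinase domain. Counts per gene do not separate it from the full-length form.

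Promoter windows of 250 bases before to 50 bases after a transcript start were at hand from RefSeq (GRCm38.p6) for 7 of the 9 genes, Bdnf with 7 windows, Ntf3 and Gdnf with 2 each, and Cntf, Ntrk2, Ngfr and Ptn with 1 each. Mdk and Ntrk3 are named only. Bdnf is a textbook target of the activity-dependent factor CREB and is transcribed from several promoters, so the windows were searched on both strands for the half-site of the cAMP response element, CGTCA or TGACG. Only 1 of the 7 Bdnf windows and 1 of the 2 Gdnf windows held a match, and the windows of the other 5 genes held none. Of all 32851 RefSeq windows of this length, 20.8% held a half-site and 1.79% the full element TGACGTCA, in which half-sites of both strands overlap. The GC box GGGCGG was in 2 Bdnf windows, both Ntf3 windows and the windows of Ntrk2 and Ngfr, and in 35.7% of all windows. A match is a description of the letters and not a binding site. The 4 windows below, each written 5′ to 3′ along the strand of the gene with half-site matches in capitals, set the 2 ligand windows with a match beside those of the ligand and the receptor that had the most counts.
Bdnf, chr2:109692186-109692485, plus strand: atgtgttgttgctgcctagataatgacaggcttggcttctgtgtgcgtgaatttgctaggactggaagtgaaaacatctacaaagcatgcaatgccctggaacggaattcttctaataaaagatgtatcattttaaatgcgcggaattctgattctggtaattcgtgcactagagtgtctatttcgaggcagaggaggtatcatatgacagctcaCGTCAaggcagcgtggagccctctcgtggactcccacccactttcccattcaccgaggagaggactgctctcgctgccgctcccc
Gdnf, chr15:7809798-7810097, plus strand: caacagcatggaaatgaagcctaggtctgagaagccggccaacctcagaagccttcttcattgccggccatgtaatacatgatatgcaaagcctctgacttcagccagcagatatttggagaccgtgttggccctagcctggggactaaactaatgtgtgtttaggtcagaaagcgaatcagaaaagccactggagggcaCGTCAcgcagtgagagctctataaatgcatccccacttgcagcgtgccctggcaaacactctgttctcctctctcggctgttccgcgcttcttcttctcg
Ptn, chr6:36810130-36810429, minus strand: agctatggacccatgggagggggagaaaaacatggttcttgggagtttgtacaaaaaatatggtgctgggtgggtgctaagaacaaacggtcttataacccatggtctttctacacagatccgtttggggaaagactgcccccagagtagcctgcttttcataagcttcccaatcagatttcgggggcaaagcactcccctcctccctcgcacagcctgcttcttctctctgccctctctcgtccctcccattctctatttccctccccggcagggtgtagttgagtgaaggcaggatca
Ntrk2, chr13:58806319-58806618, plus strand: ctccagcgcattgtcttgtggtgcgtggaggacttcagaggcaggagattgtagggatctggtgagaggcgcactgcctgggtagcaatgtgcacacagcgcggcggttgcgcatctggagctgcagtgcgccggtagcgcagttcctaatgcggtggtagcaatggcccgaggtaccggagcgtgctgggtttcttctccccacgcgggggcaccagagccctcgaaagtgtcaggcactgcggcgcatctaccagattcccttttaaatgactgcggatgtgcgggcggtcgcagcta

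Among the ligands, pleiotrophin and midkine stood far above the others in every culture. Ptn (GeneID 19242, chr6:36714924-36810179, minus strand, GRCm38.p6 as are all positions here) encodes pleiotrophin, a heparin-binding growth factor of developing brain. It had 669.8 CPM in culture 4, against 636.6, 631.8 and 567.0 CPM in cultures 1, 2 and 3. The highest and lowest values differed by 1.18-fold, and its mean of 626.3 ± 43.0 CPM (SD, n = 4) placed it at rank 157 of the table. Its window, the third of the 4 above, held neither a half-site nor a GC box.

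Mdk (GeneID 17242, chr2:91929805-91932297, minus strand) encodes midkine, the only other member of the pleiotrophin family. It had 53.5 CPM in culture 4, against 65.3, 67.5 and 61.9 CPM in cultures 1, 2 and 3, with a mean of 62.0 ± 6.17 CPM (SD, n = 4). Culture 4 was the lowest, and the values spanned 1.26-fold. The gene overlaps Chrm4 by 31 bases and the lncRNA Gm39876 by 81 bases on the opposite strand. Both of these had under 1 CPM (0.240 ± 0.11 CPM for Chrm4 and 0.0374 ± 0.025 CPM for Gm39876, SD, n = 4).

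Cntf (GeneID 12803, chr19:12763528-12765632, minus strand) encodes ciliary neurotrophic factor, a cytokine of the interleukin-6 family that astrocytes are known to make. It had 6.66 CPM in culture 4, against 9.62, 9.51 and 10.1 CPM in cultures 1, 2 and 3, a mean of 8.99 ± 1.58 CPM (SD, n = 4). Culture 4 lay below the other 3, which were within 1 CPM of each other. These values are uncertain: the whole Cntf span of 2105 bases lies inside the same-strand lncRNA Gm44505 (47.6 ± 1.46 CPM, SD, n = 4), and none of the 4 Cntf counts was a whole number. Whether reads were shared with the lncRNA was not tested.

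Bdnf (GeneID 12064, chr2:109674700-109727043, plus strand) encodes brain-derived neurotrophic factor, the main ligand of TrkB. It had 5.31 CPM in culture 4, against 9.05, 8.78 and 8.71 CPM in cultures 1, 2 and 3, from 225 counts in culture 4 and 372, 352 and 325 counts in the others. Its mean was 7.96 ± 1.78 CPM (SD, n = 4), and culture 4 lay apart from 3 nearly equal values.

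Gdnf (GeneID 14573, chr15:7810048-7837580, plus strand) encodes glial cell line-derived neurotrophic factor, first isolated from a glial cell line. It had few counts, though above the floor of 3 counts in every library, with 15 counts in culture 4 and 41, 28 and 24 counts in cultures 1, 2 and 3. That is 0.354 CPM in culture 4, against 0.998, 0.698 and 0.643 CPM in the others, so no library reached 1 CPM. Ntf3 (GeneID 18205, chr6:126101412-126166772, minus strand), which encodes the TrkC ligand NT-3, had 3 counts in culture 4 and 3, 1 and 1.25 counts in cultures 1, 2 and 3. All 4 values were at or under the floor of 3 counts, so Ntf3 was not detectable above it at this depth, and no fold is given for it.

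Of the receptors, Ntrk2 (GeneID 18212, chr13:58806472-59133970, plus strand), which encodes TrkB, led by a wide margin. It had 1275 CPM in culture 4, against 1167, 1188 and 1175 CPM in cultures 1, 2 and 3, and its mean of 1201 ± 49.6 CPM (SD, n = 4) was the 55th highest of the table. Culture 4 was the highest, but by 1.08-fold over the mean of the others. None of the 4 Ntrk2 counts was a whole number, although the one annotated gene inside its span, the opposite-strand lncRNA Gm53063, had only 0.174 ± 0.0856 CPM (SD, n = 4).

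Ntrk3 (GeneID 18213, chr7:78179986-78581034, minus strand) encodes TrkC, the receptor of NT-3. It had 6.28 CPM in culture 4, against 13.9, 15.6 and 14.3 CPM in cultures 1, 2 and 3, and a mean of 12.5 ± 4.23 CPM (SD, n = 4). No other expressed gene of the 9 had so low a value in culture 4 relative to the rest. Ngfr (GeneID 18053, chr11:95568818-95587698, minus strand) encodes p75, which binds all neurotrophins and their unprocessed precursors. It had 6.92 CPM in culture 4, against 5.82, 5.96 and 5.68 CPM in cultures 1, 2 and 3, a mean of 6.09 ± 0.559 CPM (SD, n = 4), so here culture 4 was the highest.

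**Figure D1:**
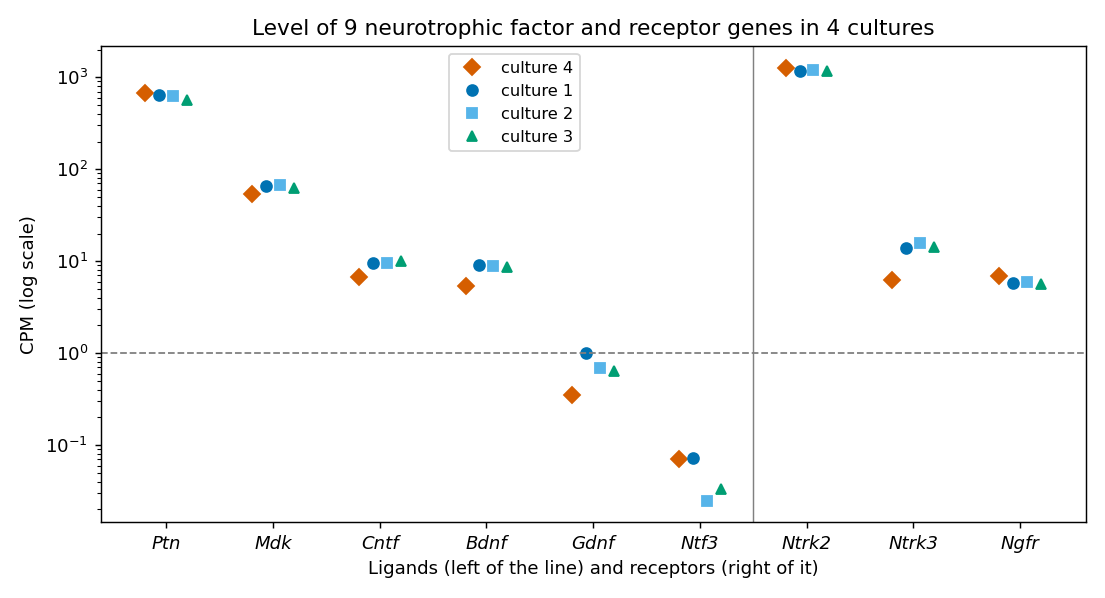
CPM of each of the 9 genes (log axis), ligands to the left and receptors to the right of the grey line, with 1 point for each culture and a dashed line at 1 CPM. Ptn and Ntrk2 lie between 567.0 and 1275 CPM, Gdnf and Ntf3 lie below 1 CPM, and culture 4 is the lowest point for Bdnf, Cntf, Mdk, Gdnf and Ntrk3.

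By the rule of 1 CPM or more in each library, 7 of the 9 genes were expressed, beside 32.2% of all 45703 genes. A test of each fitted level against 1 CPM (edgeR quasi-likelihood, Benjamini-Hochberg over 17105 genes) put 7 of the 8 genes tested above it, where 86.4% of all genes tested were above and 8.44% below. Ntf3 did not pass the filter on low counts for that test. Gdnf missed the threshold of 0.05, with a fitted log2 CPM of -0.57 and an edgeR adjusted p of 0.0521. It was below 1 CPM in 4 of 4 libraries, and over 8 other settings its edgeR adjusted p ran from 0.0168 to 0.138, with 4 of them under the threshold.

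Levels of different genes were compared per kilobase of the combined exon length in the table (RPKM). Mean RPKM ran from 365.4 ± 25.1 for Ptn through 44.1 ± 4.39 for Mdk, 33.8 ± 1.40 for Ntrk2, 7.46 ± 1.31 for Cntf, 1.79 ± 0.164 for Ngfr, 1.19 ± 0.264 for Bdnf and 0.601 ± 0.203 for Ntrk3 to 0.138 ± 0.0542 for Gdnf (SD, n = 4 each). No pair of neighbours in this order overlapped in RPKM between their 4 libraries, and the upper gene was the higher in 4 of 4 libraries for all 7 neighbouring pairs. An exact sign-flip permutation test over the 4 libraries gave a two-sided p of 0.13 for each, which is the smallest it can give. In the edgeR quasi-likelihood fits, 28 of 28 pairs among the 8 genes were called apart. This count has little to set it off, because most genes differ in level from any one gene: the share of the 17104 other genes called apart was 99.8% for Ptn, 96.8% for Mdk, 97.5% for Ntrk2, 89.4% for Cntf, 95.1% for Ngfr, 92.4% for Bdnf and 89.6% for Ntrk3. Each fit reuses the counts of 1 gene in all its features, so its p-values can be too small, and the sizes are the better guide. The p of a pair was taken from the fit of its gene with the higher mean RPKM. Pairs from fits of different genes should therefore not be ranked by p.

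Between the ligands, the RPKM ratio of Ptn to Mdk was 10.3 in culture 4, against 7.52 to 8.0 in cultures 1 to 3, and the fitted log2 ratio was 3.05 ± 0.08 (SE; edgeR adjusted p = 1.19e-10). The ratio of Cntf to Bdnf was 6.99 in culture 4, against 5.92 to 6.49 in cultures 1 to 3 (log2 2.66 ± 0.18, edgeR adjusted p = 1.13e-24). The gap between pleiotrophin and its relative midkine was thus wider in culture 4, and both exceeded the classical neurotrophins in every culture.

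Between the receptors, the RPKM ratio of Ntrk2 to Ntrk3 was 119.2 in culture 4, against 44.6 to 49.4 in cultures 1 to 3 (log2 5.87 ± 0.28, edgeR adjusted p = 1.58e-06). The ratio of Ntrk2 to Ngfr was steadier, at 17.7 in culture 4 and 19.1 to 19.9 in cultures 1 to 3 (log2 4.24 ± 0.07, edgeR adjusted p = 1.16e-08). TrkB was thus the leading neurotrophin receptor transcript in all 4 cultures by more than 10-fold.

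Across ligands and receptors, Ptn exceeded Ntrk2 by 10.9-fold in RPKM in culture 4 and by 9.99- to 11.3-fold in cultures 1 to 3 (log2 3.43 ± 0.06, edgeR adjusted p = 5.31e-12). That ratio was far smaller with another gene length (log2 0.83) and turned without one (log2 -0.94). The ratio of Ntrk2 to Cntf was 6.50 in culture 4, against 3.93 to 4.24 in cultures 1 to 3 (log2 2.2 ± 0.13, edgeR adjusted p = 5.49e-06). Cntf over Ngfr was 2.72-fold in culture 4, against 4.51- to 5.05-fold in cultures 1 to 3 (log2 2.05 ± 0.18, edgeR adjusted p = 5.14e-18). Culture 4 thus stood outside the range of the others for both Cntf ratios. Cntf is the lower gene of the first and the upper gene of the second. Its lower level in culture 4 therefore widens the first and narrows the second, and the Cntf counts are uncertain as given above.

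The closest levels were those of Mdk and Ntrk2 and those of Ngfr and Bdnf. Mdk exceeded Ntrk2 by 1.06-fold in RPKM in culture 4, against 1.33- to 1.44-fold in cultures 1 to 3 (log2 0.38 ± 0.09, edgeR adjusted p = 0.00038). Ngfr exceeded Bdnf by 2.57-fold in culture 4, against 1.27- to 1.34-fold in cultures 1 to 3 (log2 0.61 ± 0.18, edgeR adjusted p = 0.0158). Both orders turn with the gene length used, as given below. Bdnf over Ntrk3 was 2.63-fold in culture 4, against 1.74- to 2.03-fold in cultures 1 to 3 (log2 1.03 ± 0.22, edgeR adjusted p = 3.57e-06). This order turned without a length term (log2 -0.60), and with cultures 1 to 3 summed as 1 sample the edgeR adjusted p was 0.0926. Ntrk3 over Gdnf was 4.14-fold in culture 4, against 3.25- to 5.23-fold in cultures 1 to 3 (log2 2.12 ± 0.36, edgeR adjusted p = 8.95e-09, and 0.0579 with those cultures summed).

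**Figure D2:**
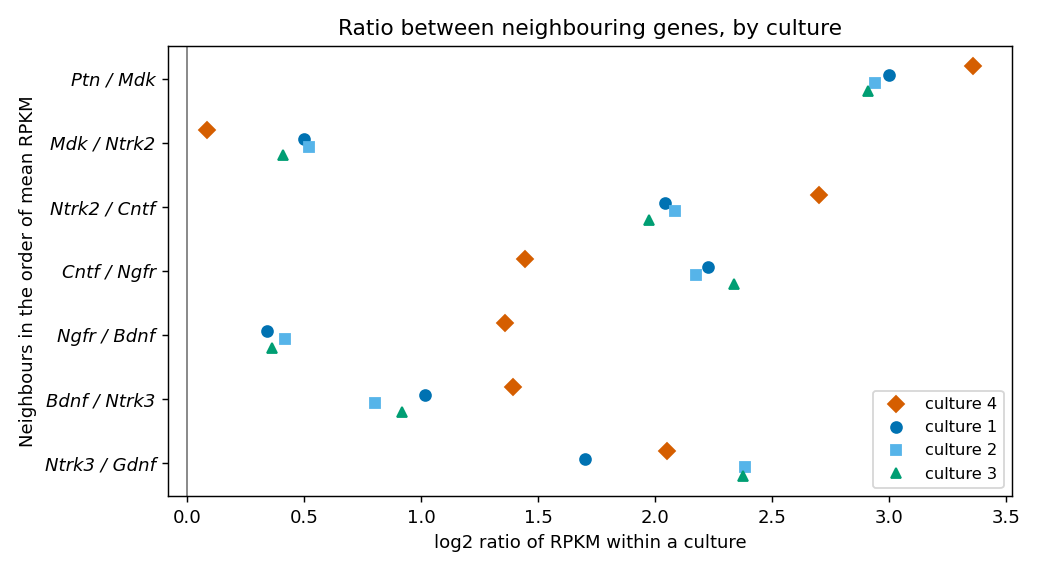
log2 ratio of RPKM between neighbouring genes in the order of mean RPKM, with 1 point for each culture and culture 4 at the top of each row. All points lie to the right of 0. Within its row, culture 4 is the point nearest to 0 for Mdk over Ntrk2 and Cntf over Ngfr. It is the point farthest from 0 for Ptn over Mdk, Ntrk2 over Cntf, Ngfr over Bdnf and Bdnf over Ntrk3.

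The combined exon length covers every annotated exon of a gene and is long where a gene has many transcript forms. For Ntrk2 it was 35504 bases, against 8744 bases for the longest of its 10 GENCODE M21 transcripts. For Bdnf it was 6714 bases against 4266, and for Ptn 1714 bases against 2558. Per kilobase of the longest transcript, a scale of levels added after the data were seen, the mean level was 137.4 ± 5.68 CPM for Ntrk2, 58.8 ± 5.85 CPM for Mdk, 1.87 ± 0.416 CPM for Bdnf and 1.77 ± 0.162 CPM for Ngfr (SD, n = 4 each). With that length the edgeR log2 ratio of Mdk to Ntrk2 turned to -1.23, and that of Ngfr to Bdnf to -0.05 (edgeR adjusted p = 0.779), so Ngfr and Bdnf were not separated. The log2 ratio of Ptn to Mdk became 2.06 and that of Ptn to Ntrk2 0.83, while those of Ntrk2 to Cntf, Ngfr and Ntrk3 became 4.05, 6.28 and 7.81. Ptn stayed at the top at 244.8 ± 16.8 CPM per kilobase (SD, n = 4), and Ntrk3, Gdnf and Ntf3 stayed at the bottom in the same order.

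**Figure D3:**
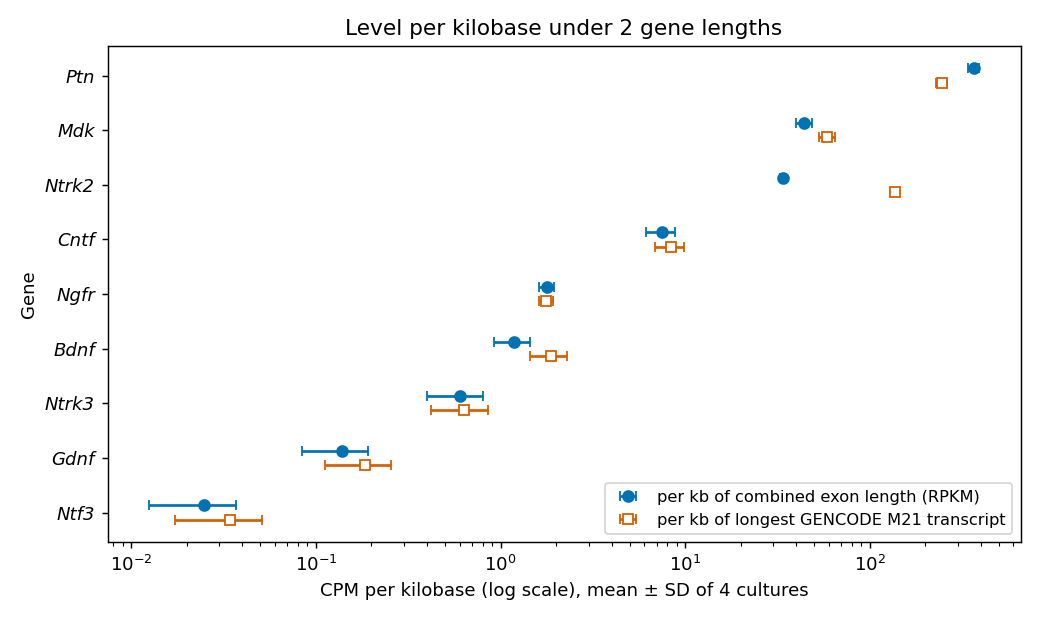
Mean level per kilobase (log axis) of the 9 genes under 2 lengths, with bars for the SD of 4 cultures: filled circles use the combined exon length (RPKM) and open squares the longest GENCODE M21 transcript. The symbols lie farthest apart for Ntrk2, at 33.8 and 137.4 CPM per kilobase.

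The receptors and partners of the 9 genes were read from 12 lists of 75 pathway genes, the 9 included. Of these 75, 56 were expressed (74.7%), and of the 66 others 49 (74.2%), beside 32.2% of all genes in the table. The median mean CPM of the 66 was 28.7, against 0.0326 over all genes. The lists were drawn up for genes with known roles in these pathways, so the higher share says nothing particular to astrocytes.

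In the neurotrophin system, the expressed members were Bdnf, Ntrk2, Ntrk3 and Ngfr. Ntf5, which encodes NT-4, another TrkB ligand, had 8 counts in all 4 libraries together. Bdnf thus had far more counts than the other ligand that prefers TrkB.

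Of 11 partners of p75 and of the proneurotrophins, 9 were expressed. Sort1, which encodes the proneurotrophin co-receptor sortilin, had 228.4 CPM in culture 4, against 255.5 to 259.9 CPM in cultures 1 to 3. The gene of the list with the most counts was Maged1, a p75-binding protein also called NRAGE, with 845.1 ± 84.3 CPM, followed by Sort1 with 250.6 ± 14.9, the TRK scaffold gene Kidins220 with 219.7 ± 10.2 and the sortilin relative Sorcs1 with 175.4 ± 10.8 CPM (SD, n = 4 each). The lowest were Sorcs3 with 0.0994 ± 0.0278, the Nogo receptor gene Rtn4r with 0.220 ± 0.0686 and its partner Lingo1 with 13.4 ± 0.650 CPM (SD, n = 4 each). Per kilobase, Sort1 had 35.0 ± 2.08 RPKM (SD, n = 4).

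Below the TRK receptors, 11 of 12 adaptors and effectors were expressed, led by the phosphatase gene Ptpn11 (SHP2) with 218.1 ± 2.08 CPM and the neural adaptor gene Shc3 with 123.3 ± 6.06 CPM. The exception was Shc2 with 0.913 ± 0.319 CPM (SD, n = 4 each). Of 12 genes for cutting and sorting the precursors, 7 were expressed. Cpe, a carboxypeptidase that also acts in sorting pro-BDNF, had 1325 ± 49.6 CPM, tPA (Plat) 166.7 ± 4.46 and the proprotein convertase Furin 87.2 ± 4.83 CPM (SD, n = 4 each). Plg, which encodes plasminogen, had 6 counts in all, Mmp7 had none, and the neuroendocrine convertase Pcsk1 had 0.236 ± 0.0460 CPM (SD, n = 4).

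In the GDNF system, 1 of 4 ligands and 3 of 6 receptors were expressed. Neurturin (Nrtn) led the ligands with 5.95 ± 0.819 CPM, artemin (Artn) had 1.15 ± 0.430 CPM (SD, n = 4 each), persephin (Pspn) had no count, and Gdnf itself stood under 1 CPM as above. The GDNF co-receptor gene Gfra1 had 30.3 CPM in culture 4, against 60.2 to 62.3 CPM in cultures 1 to 3. The kinase gene Ret had 0.496 CPM in culture 4, against 2.73 to 3.17 CPM in cultures 1 to 3, and so missed the 1 CPM rule through culture 4. Artn missed the rule in the same way, at 0.519 CPM in culture 4 against 1.24 to 1.45 CPM in cultures 1 to 3. Ncam1, an alternative GDNF receptor with many other roles, had 314.9 ± 16.5 CPM (SD, n = 4). Culture 4 was the lowest for Gdnf, Gfra1, Ret and Artn and for Ncam1 (291.0 CPM, against 316.9 to 327.0 CPM in cultures 1 to 3). By a small gap it was also the lowest for Gfra4 (0.838 CPM, against 0.858 to 1.33 CPM). It was the highest for Nrtn (6.80 CPM, against 4.86 to 6.27 CPM). By a small gap it was also the highest for the neurturin co-receptor gene Gfra2 (3.52 CPM, against 3.09 to 3.43 CPM).

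In the CNTF system, Cntf and all 3 receptor subunits were expressed. Cntfr, which encodes the CNTF-binding subunit, had 31.7 ± 4.20 CPM, Lifr 25.0 ± 2.48 and the shared signalling subunit gene Il6st (gp130) 256.2 ± 19.8 CPM (SD, n = 4 each). Other ligands of these subunits were Clcf1 with 19.1 ± 1.91, Lif with 9.91 ± 0.961 and Ctf1 with 7.15 ± 1.55 CPM (SD, n = 4 each).

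For Ptn and Mdk, 9 of 10 genes listed as receptors were expressed. Ptprz1, the phosphatase that binds both proteins, had 1367 ± 110.9 CPM and 133.9 ± 10.9 RPKM, a mean above that of Mdk and below that of Ptn per kilobase. The nucleolin gene Ncl had 582.6 ± 46.6, the syndecan gene Sdc3 375.3 ± 18.9 and Lrp1 316.3 ± 9.84 CPM. The receptor kinase genes of this list were low, Alk at 1.82 ± 0.143 and Ltk at 0.658 ± 0.0183 CPM (SD, n = 4 each). The separate factor MANF had 142.9 ± 4.58 CPM for its gene Manf, and its relative Cdnf 0.915 ± 0.258 CPM (SD, n = 4 each).

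**Figure D4:**
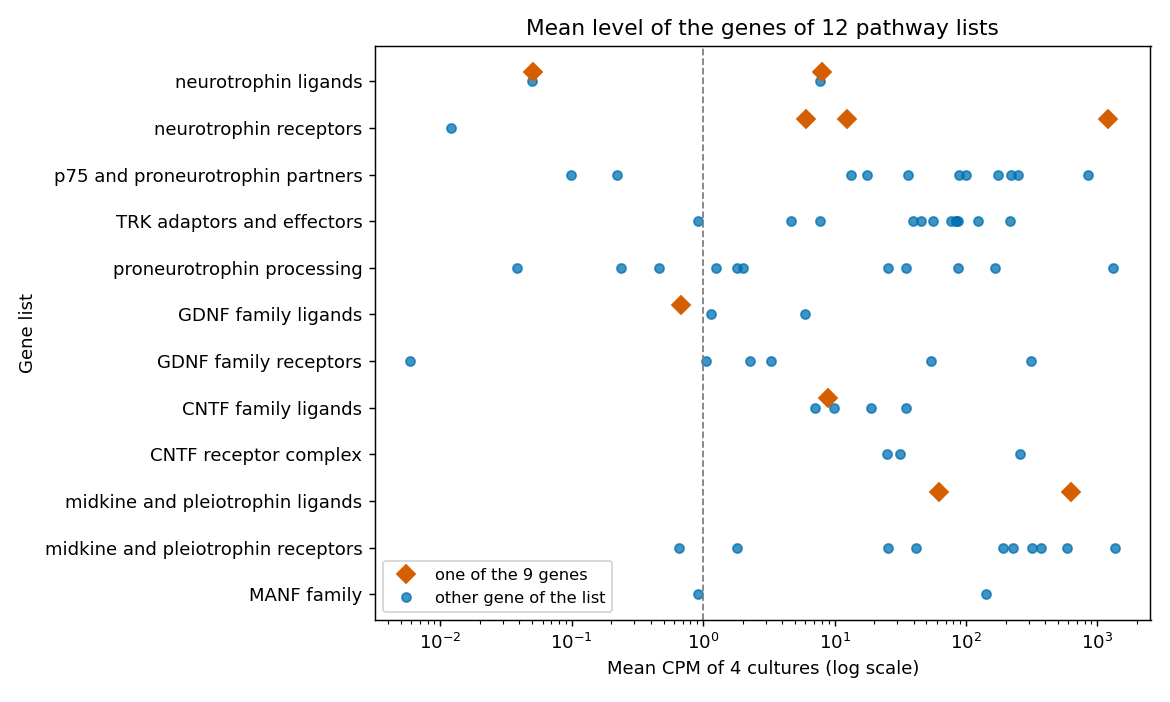
Mean CPM over 4 cultures (log axis) of the genes in 12 pathway lists, with the 9 genes as diamonds (drawn slightly higher in their row), the other genes as circles and a dashed line at 1 CPM. Mmp7 and Pspn, with no count, are not drawn. Every list has at least 1 gene to the right of the dashed line, and the rightmost circle among the midkine and pleiotrophin receptors is Ptprz1 at 1367 CPM.

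Relative to the mean of cultures 1 to 3, culture 4 held 0.430-fold the level of Ntrk3 (log2 -1.22), 0.600-fold that of Bdnf (log2 -0.74), 0.682-fold that of Cntf (log2 -0.55) and 0.824-fold that of Mdk (log2 -0.28). Ntrk2, Ptn and Ngfr were higher in culture 4, at 1.08-, 1.09- and 1.19-fold (log2 0.12, 0.13 and 0.25). Gdnf, at 0.454-fold, rests on 15 counts in culture 4. Of the 7 genes with a mean of at least 1 CPM, 2 were over 1.5-fold lower in culture 4, beside 5.73% of 15217 genes, and 0 were over 1.5-fold higher, beside 2.39%. The median log2 difference of the 7 was -0.28, against 0.03 over all those genes. With 1 library on one side there is no test of these differences.

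The other pathway genes with a mean of at least 1 CPM showed 8 of 53 over 1.5-fold lower and 1 of 53 over 1.5-fold higher in culture 4. The shares of all 15217 genes to read these against are again 5.73% lower and 2.39% higher. Among those named above, Gfra1, Ret and Artn were lower by this measure. The marker lists moved as well. The summed fibroblast markers had 571.2 CPM in culture 4, against 1476 to 1567 CPM in cultures 1 to 3. That sum was mostly Col1a1 and Col1a2, and Fbln1 went the other way, at 27.7 CPM against 10.1 to 10.7 CPM. The microglial markers had 60.8 CPM against 86.6 to 92.5 CPM, and the endothelial markers 7.70 CPM against 13.5 to 14.6 CPM. The endothelial difference lay mainly in Flt1, at 1.53 CPM against 6.06 to 6.58 CPM. Kdr had 5.62 CPM against 6.50 to 6.91 CPM, and the other endothelial markers had means under 1 CPM. The neuronal markers had 182.7 CPM in culture 4 and 205.6 to 210.6 CPM in cultures 1 to 3. That sum was mostly Stmn2, at 142.3 CPM against 146.3 to 153.7 CPM, and the list was split. Of the 6 neuronal markers with a mean of at least 1 CPM, 2 were over 1.5-fold lower and 1 was over 1.5-fold higher. Tubb3 had 7.53 CPM against 18.9 to 20.7 CPM and Nefm 0.850 CPM against 2.41 to 2.92 CPM. Gad2 had 3.46 CPM against 1.61 to 2.07 CPM. The mural markers had 2083 CPM against 2026 to 2151 CPM, mostly Acta2. Their median log2 difference was -0.42 over the 5 with a mean of at least 1 CPM. The ependymal markers had 204.1 CPM against 199.9 to 219.8 CPM, mostly Foxj1, while Rsph1 had 13.4 CPM against 18.0 to 18.7 CPM. The oligodendrocyte lineage markers had 1890 CPM against 1763 to 1808 CPM. Schwann cell markers summed to 1.61 CPM or less in every culture. No listed marker was at 0 in all 4 libraries, but Cldn5 (endothelium), Tmem212 (ependyma) and Mog (oligodendrocytes) had 1 count each over the 4 libraries. Any part of other cells in the differences of Ntrk3, Bdnf, Cntf and Gdnf was not tested.

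**Figure D5:**
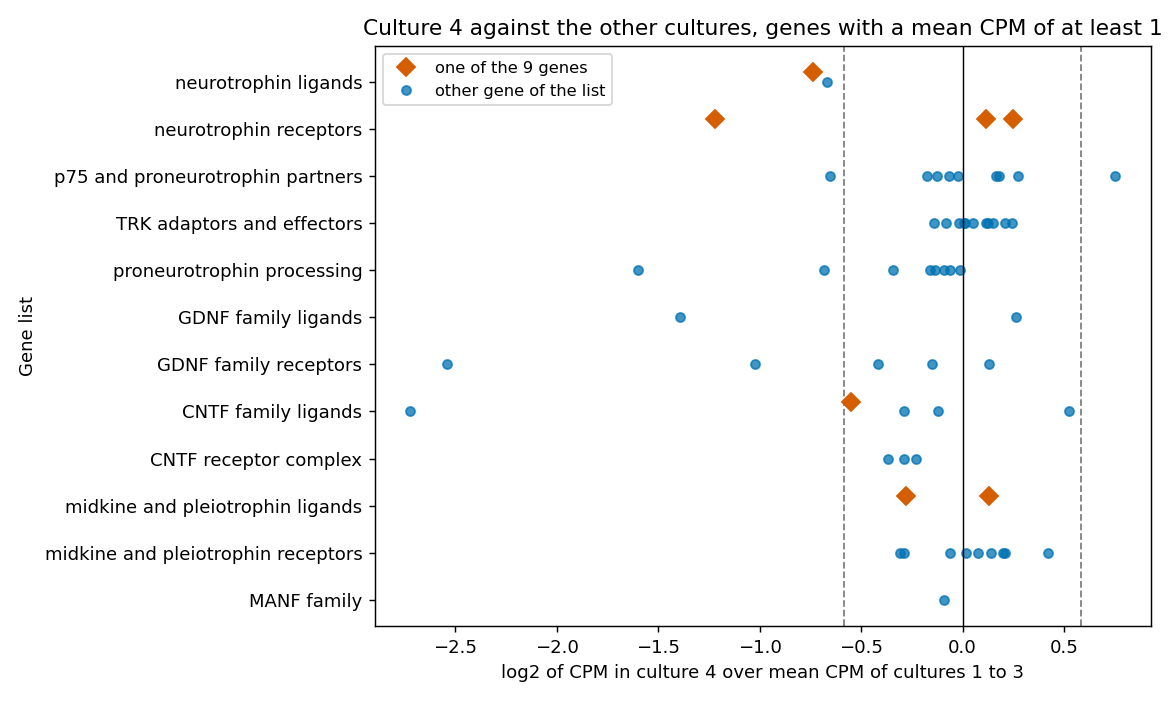
log2 of the CPM in culture 4 over the mean CPM of cultures 1 to 3 for pathway genes with a mean of at least 1 CPM, with the diamonds (drawn slightly higher in their row) for the genes of the 9, the circles for the others and dashed lines at 1.5-fold. Ntrk3 at -1.22 and Bdnf at -0.74 are the diamonds beyond the left line, and no diamond is beyond the right one.

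The spread between cultures followed the same line. The biological coefficient of variation (BCV, the relative SD between libraries beyond counting noise, from edgeR) was 0.291 for Ntrk3, 0.280 for Gdnf, 0.201 for Bdnf, 0.164 for Cntf, 0.111 for Ngfr, 0.0972 for Mdk, 0.0748 for Ptn and 0.0638 for Ntrk2. The median of these 8 genes was 0.137, against 0.0941 over all 17105 genes. Without culture 4 it was 0.0277, against 0.0255 over all genes. The BCV of Ptn, for which culture 3 was the value farthest from the rest, was 0.0346 without culture 4.

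The genes whose profile over the 4 cultures was most like that of a member were sought for the 3 expressed members that differed most in culture 4, by the root mean square distance between log2 CPM profiles, each centred on its mean, over 14724 other expressed genes. Nearest to Ntrk3 were Efemp1, Gm15564 and Nptx1, at 0.027, 0.028 and 0.038 log2 units. Nearest to Bdnf were Fgf1, Chl1 and Dynlt1-ps1, at 0.0090, 0.014 and 0.014, and nearest to Cntf were Als2cl, Spag6l and Gria1, at 0.0049, 0.011 and 0.012. Fgf1, for example, had 96.8 CPM in culture 4, against 164.3, 160.0 and 160.8 CPM in cultures 1, 2 and 3. With 3 near repeats and 1 library apart, such a distance mostly measures an equal step in culture 4.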

How the data were processed

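One table of 45703 genes with 4 columns of estimated counts was deposited by the authors, with a combined exon length (bases) per gene. Of the deposited values above 0, 31.7% were not whole, so counts were rounded to whole numbers for the count models. The build was GRCm38.p6, and the tools were featureCounts 1.6.4 (Subread), STAR 2.7.2b, cutadapt 1.17 and bcl2fastq 2.20.0.422, per the submitters' processing notes. What each did, with which settings, and the strand setting of the counting are not stated there or in the labels. A RefSeq table of that build held all 45703 identifiers, 45701 with equal start and end. The members and lists were chosen with earlier results of these data known.

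CPM used raw library sums, and RPKM divided CPM by the deposited exon length in kilobases. Expressed means 1 CPM or more in each library. Pairs of genes were compared in edgeR 4.0.16 (R 4.3.3), quasi-likelihood, two-sided: for each member, every other gene was a feature of 8 counts with terms for library and gene, an offset of library sum times exon length, and Benjamini-Hochberg adjustment over 17104 genes at 0.05. Each SE is the log2 ratio over the square root of F. Levels against 1 CPM and the BCV used TMM and an intercept-only fit on the 17105 genes kept by the filter on low counts, and the scripts were tested on simulated data. Alternatives were other lengths, filters, scalings, thresholds, cultures 1 to 3 summed, each culture left out, and DESeq2 1.42.0. All 9 members are named. Of the other pathway genes, up to 4 with the highest and 3 with the lowest mean CPM of each list could be named, with every direct receptor, co-receptor or alternative ligand. A few of these are not reported here. Reads were PCR-amplified and carry no molecular identifiers, so they are not independent molecules.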

Additional observations from a re-analysis of the deposited data

Results flagged for a closer look

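Of 49 named genes put to Dixon's test for 4 values, 11 (22.4%) had 1 culture far from the others. Chance flags about 1 group in 20, but of 20683 genes of the table with over 3 counts a library on average 13% met the same rule, which is the share to read these against. The culture was culture 4 in 9 of them, the lowest in 5 and the highest in 4, and these genes share the same 4 libraries. Of the 8 members tested it was 1, Bdnf, for which the gap of culture 4 (5.31 CPM) to the nearest of the others (8.71 CPM) was 0.909 of the whole range.

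Among the partners with culture 4 lowest, the gap was 0.932 of the range for Gfra1, 0.860 for Sort1, 0.838 for Ret and 0.835 for Rtn4r. The value for Rtn4r rests on only 5 counts in culture 4 and 10 counts in each of the others. With culture 4 highest it was 0.950 for Gpc2, a glypican, 0.903 for Maged1, 0.895 for Sdc3 and 0.854 for Gab1. Culture 3 was the highest for Lif at 0.864 and for Pcsk7 at 0.854. Ntrk3, Cntf and Gdnf did not pass this test, although culture 4 was their lowest value too.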

How the results depend on the processing

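The order of levels depended on gene length. Without a length term (CPM), the log2 ratio was -4.28 for Mdk to Ntrk2, -0.94 for Ptn to Ntrk2, -0.60 for Bdnf to Ntrk3 and -0.36 for Ngfr to Bdnf (edgeR adjusted p = 0.0971), and that of Cntf to Bdnf was 0.19 (edgeR adjusted p = 0.289). With the longest GENCODE transcript it was -1.23 for Mdk to Ntrk2 and -0.055 for Ngfr to Bdnf. With cultures 1 to 3 summed as 1 sample, the edgeR adjusted p was 0.169 for Mdk to Ntrk2, 0.0926 for Bdnf to Ntrk3 and 0.0579 for Ntrk3 to Gdnf, with log2 ratios of 0.28, 1.15 and 2.09. Pairs called numbered 26 without length, 27 with GENCODE length, 25 with cultures summed, and 28 with DESeq2, with no filter and without each culture in turn.

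Members over 1.5-fold off in culture 4 numbered 2, but 1 at 2-fold and 4 among all with a total above 3 counts, which adds Gdnf and Ntf3, the second at 3 counts or fewer in every library. The median BCV ran from 0.0277, without replicate 4, to 0.166 when 1 culture was left out. Members expressed fell to 6 with a TPM minimum of 1, and pathway genes expressed ran from 53 to 61. Gdnf was called below 1 CPM with raw library sums, with no filter, without replicate 1 and without replicate 4 (edgeR adjusted p = 0.0485, 0.0405, 0.0168 and 0.027), but not with DESeq2 size factors, cultures summed, without replicate 2 or without replicate 3 (edgeR adjusted p = 0.0523, 0.065, 0.11 and 0.138). No paired analysis was possible because the series has 1 group. The library term is already in the fits of pairs.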
